A study of Mus musculus with 4 samples.

Results

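The 42 genes described here encode the proteins that copy DNA and then separate the copies in mitosis, and they were read from an RNA sequencing table of 51098 genes from mouse stomachs taken at E15.5, a stage of embryonic development. They were chosen by gene name: 20 act in S phase, when DNA is replicated, and 22 act in G2 and M, when the cell prepares for and completes division. All 42 were found as protein-coding genes, spread over 17 chromosomes of the GRCm38 build. The study set stomachs of genotype Fgf9LacZ/LacZ, called Fgf9_null here, against stomachs of genotype Fgf9LacZ/+, called Fgf9_het here. Fgf9 encodes a secreted fibroblast growth factor. By the genotype field every sample carried the LacZ allele, so no sample is treated as wild type here, although the sample titles call the Fgf9_het samples WT. Each group had 2 samples of total stomach RNA, numbered 2 and 3 in both groups. Strain, sex and the number of embryos behind a sample are not stated in the sources used.

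A dividing cell first loads the MCM helicase on origins of replication, then opens the DNA with it, copies both strands behind a sliding clamp and repacks the new DNA into chromatin. It next switches on the kinase CDK1 with cyclins A and B, builds a spindle, checks that each chromosome is attached and destroys cyclin B through the anaphase-promoting complex. Many S phase genes are switched on by E2F factors, whereas many G2 and M genes are controlled through a promoter element called the CHR (cell cycle genes homology region) and through CCAAT boxes, which the factor NF-Y binds. RNA of these genes is abundant only in cycling cells, so in a whole organ it tracks the cells that divide.

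The columns did not hold 4 separate samples. Estimated counts, the reads that the authors' software assigned to each gene, summed to 19537211 and 22713416 in Fgf9_null replicates 2 and 3, and to 19269851 and 22425865 in Fgf9_het replicates 2 and 3. The targeted gene was the same under both labels: Fgf9 had 133 and 131 reads in Fgf9_null replicates 2 and 3, and 133 and 131 reads in the Fgf9_het replicates. Columns that share a number differed by far less than sampling noise over the 42 genes: a chi-square per degree of freedom came to 0.00054 for number 2 and to 0.00026 for number 3, against 4.85 to 4.87 for columns of different number. Such columns were therefore counted as 1 sample. This leaves 2 libraries, library 3 and library 2, and both genotype labels contain both of them. Which genotype either library came from cannot be told from these columns.

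No replication or mitosis gene was called different between Fgf9_null and Fgf9_het. For example, Pcna had 1426 and 2073 reads in Fgf9_null replicates 2 and 3, and 1426 and 2074 reads in the Fgf9_het replicates. Mki67 had 10804 and 12641 reads in Fgf9_null replicates 2 and 3, and 10807 and 12654 reads in the Fgf9_het replicates. The gaps between labels were a few reads, far smaller than the gaps between the numbers. Of the 42 genes, 15 were equal under both labels within 0.01 reads in number 2 and 18 in number 3, and the largest gaps were 4 and 13 reads. The edgeR quasi-likelihood test called 0 of the 42 at an adjusted p under 0.05, and 0% of the 19987 genes tested; 4 genes in all and none of the 42 had an unadjusted p under 0.05. The largest log2 fold of Fgf9_null over Fgf9_het among the 42 was 0.00274 in size, and the smallest unadjusted p was 0.968. DESeq2 called 3 of 29597 genes (0.0101%), the RNA genes Gm19220, Rn7s1 and Rn7s6, which are named after their values were seen. A replicate block in edgeR gave 6 calls among 19987 genes (0.03%), and limma-voom gave 0; no fit called any of the 42. Because each library stood on both sides, the labels compared each library with itself, and the genotypes could not be compared.

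The comparison that the columns did allow was library 3 over library 2, with the mean of the same-numbered columns as the level, in CPM (the count of a gene relative to the summed counts of its column). There the S phase genes were higher in library 3 as a group, and the G2 and M genes less so. Of the 20 S phase genes, 17 were higher in library 3, with a median log2 fold of 0.14 (1.1-fold); of the 22 G2 and M genes, 17 were higher, with a median log2 fold of 0.05 (1.03-fold). Cdc45 and Bub1b, both at 1.00-fold, changed sign with the scaling. Of all 16712 genes with at least 1 CPM in both libraries, 45.8% were higher and 54.2% lower in library 3, with a median log2 fold of -0.02. Among the 9553 genes within the range of levels of the 42, 48% were higher in library 3. Each side is 1 library, so no test was possible and the differences have no replicate check. In whole stomach RNA, more dividing cells and more RNA of these genes per dividing cell cannot be told apart.

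The folds were then set against counting error and against the rest of the table. Each fold has an exact (Clopper-Pearson) 95% interval, which covers counting error only. Of the 20 S phase genes, 11 had an interval wholly above 1, 1 (Tyms) wholly below 1 and 8 spanned 1. Of the 22 G2 and M genes, 6 had an interval above 1, 0 below 1 and 16 spanned 1. Over all 16712 genes, 10.3% had an interval above 1 and 12.7% below 1. By size, 10 S phase and 5 G2 and M genes were over 1.1-fold higher in library 3, against 17.3% of all genes, while 0 of the 42 were over 1.1-fold lower, against 23.9% of all genes. Within the range of levels of the 42, the shares of all genes were 11.7% over 1.1-fold higher and 13.4% over 1.1-fold lower, and 13.7% had an interval above 1. Summed over the genes, S phase levels were 1442 CPM in library 3 against 1291 CPM in library 2, a ratio of 1.12 (1.1 to 1.14), and G2 and M levels were 2089 CPM in library 3 against 2037 CPM in library 2, a ratio of 1.03 (1.01 to 1.04). The sum of the S phase genes was thus 0.690 of that of the G2 and M genes in library 3 and 0.634 in library 2, and the medians of log2 fold differed by 0.09. The 42 genes together held 0.353% of the counts of library 3 and 0.333% of those of library 2.

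**Figure D1:**
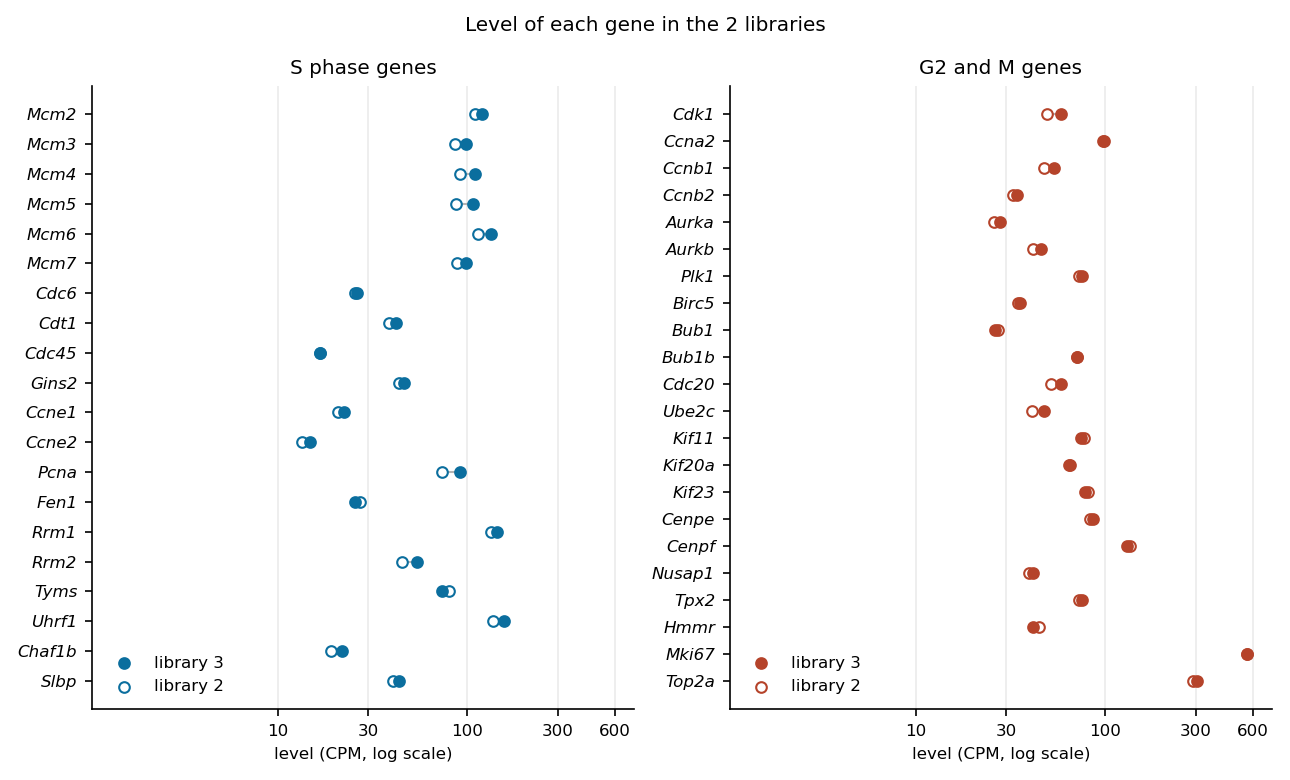
Level in CPM (log scale) of the 20 S phase genes (left) and the 22 G2 and M genes (right), 1 row per gene; filled points are library 3 and open points library 2, each the mean of 2 same-numbered columns. Levels lie between 560.4 CPM (Mki67, library 3) and 13.4 CPM (Ccne2, library 2), and the filled point is right of the open one in 17 S phase and 17 G2 and M genes.

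The promoter sequences of the genes were searched for elements known from the cell cycle. RefSeq windows of 300 bases on GRCm38.p6, from 250 before to 50 after the annotated start, were at hand for 17 S phase and 18 G2 and M genes; Ccne2, Tpx2, Ccna2, Gins2, Mcm4, Aurkb and Kif20a had none. They were searched on both strands for the E2F motifs TTTGGCGC, TTTCGCGC, TTTCCCGC and TTTGGCGG, for the CHR motifs TTTGAA and TTTAAA, and for the CCAAT box, CCAAT. The stretches of 250 bases before the start are shown for a pair of MCM genes with E2F motifs, for Cdk1, the G2 and M gene with an E2F motif, and for Top2a, Ccnb2 and Mki67, which carry CHR motifs and CCAAT boxes; capitals mark the letters of every motif match on either strand.
Mcm5: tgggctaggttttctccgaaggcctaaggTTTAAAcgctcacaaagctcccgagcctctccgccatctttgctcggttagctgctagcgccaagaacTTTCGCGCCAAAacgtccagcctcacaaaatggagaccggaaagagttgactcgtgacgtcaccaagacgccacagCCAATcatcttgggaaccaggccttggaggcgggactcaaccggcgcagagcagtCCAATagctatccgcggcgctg
Mcm6: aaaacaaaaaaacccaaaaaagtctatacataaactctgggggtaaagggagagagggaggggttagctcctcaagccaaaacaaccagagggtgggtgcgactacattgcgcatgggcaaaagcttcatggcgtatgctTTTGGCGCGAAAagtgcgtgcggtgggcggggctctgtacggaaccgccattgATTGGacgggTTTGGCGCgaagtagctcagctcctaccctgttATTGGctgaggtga
Cdk1: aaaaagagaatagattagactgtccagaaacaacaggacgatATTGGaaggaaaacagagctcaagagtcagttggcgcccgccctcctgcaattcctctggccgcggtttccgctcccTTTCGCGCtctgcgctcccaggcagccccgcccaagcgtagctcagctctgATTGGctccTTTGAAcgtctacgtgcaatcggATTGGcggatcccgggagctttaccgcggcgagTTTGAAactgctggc
Top2a: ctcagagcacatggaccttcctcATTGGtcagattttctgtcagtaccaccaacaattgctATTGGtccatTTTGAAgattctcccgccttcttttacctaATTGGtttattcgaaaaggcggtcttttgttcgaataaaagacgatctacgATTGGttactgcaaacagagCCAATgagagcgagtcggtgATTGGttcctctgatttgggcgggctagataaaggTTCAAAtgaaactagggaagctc
Ccnb2: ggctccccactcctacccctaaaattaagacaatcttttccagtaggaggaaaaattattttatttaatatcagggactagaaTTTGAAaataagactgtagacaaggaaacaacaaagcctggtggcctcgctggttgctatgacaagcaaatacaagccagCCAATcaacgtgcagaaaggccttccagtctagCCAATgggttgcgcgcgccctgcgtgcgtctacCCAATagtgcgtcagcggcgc
Mki67: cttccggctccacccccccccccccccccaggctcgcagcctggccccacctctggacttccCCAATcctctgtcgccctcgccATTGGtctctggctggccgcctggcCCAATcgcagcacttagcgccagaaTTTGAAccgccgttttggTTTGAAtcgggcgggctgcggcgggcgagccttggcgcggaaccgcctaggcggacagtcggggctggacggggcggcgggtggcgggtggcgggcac
They lie at chr8:75109259-75109508 on the plus strand for Mcm5, and on the minus strand at chr1:128359706-128359955 for Mcm6, chr10:69352913-69353162 for Cdk1, chr11:99024190-99024439 for Top2a, chr9:70421555-70421804 for Ccnb2 and chr7:135716380-135716629 for Mki67, each written 5′ to 3′ along its gene. All bases are upstream of the annotated exons except the last 26 of the Cdk1 stretch, which are exonic in GENCODE M21.

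In the Mcm5 stretch the longest run of capitals holds a pair of overlapping E2F motifs on opposite strands, at positions -150 and -146 counted from the annotated start. Mcm6 has such a pair at -107 and -103 and a further E2F motif at -44. Cdk1 has an E2F motif at -128, CHR motifs at -69 and -13 and 3 CCAAT boxes. Ccnb2 has CCAAT boxes at -85, -52 and -19. Top2a has 6 CCAAT boxes and CHR motifs at -177 and -21, and Mki67 has 3 CCAAT boxes and CHR motifs at -114 and -96.

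Across the windows, E2F motifs were more frequent in S phase genes and CHR motifs in G2 and M genes. An E2F motif stood in 7 of 17 S phase genes (41.2%), namely Cdc6, Cdt1, Mcm3, Mcm5, Mcm6, Mcm7 and Uhrf1, in 1 of 18 G2 and M genes (5.56%) and in 2.7% of all genes with a window. A CHR motif stood in 7 of 17 S phase genes (41.2%), in 16 of 18 G2 and M genes (88.9%) and in 30.6% of all. CCAAT boxes stood in 11 of 17 S phase genes (64.7%), in 16 of 18 G2 and M genes (88.9%) and in 41.1% of all. Both a CHR motif and a CCAAT box stood in 5 of 17 S phase genes (29.4%), in 15 of 18 G2 and M genes (83.3%) and in 12.2% of all. Among the 11923 genes with a window and at least 1 CPM in both libraries, E2F motifs stood in 4.63% and CHR motifs in 23.4%. CCAAT boxes stood in 42.7% of them, and a CHR motif with a CCAAT box in 9.68%. The E2F share of the G2 and M genes was thus near that of expressed genes. Per window rather than per gene, all promoters held E2F motifs in 2.37%, CHR motifs in 27.6% and CCAAT boxes in 37.4% of cases. A match describes the letters and not a bound site, and no match says only that these letters are not in the window.

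**Figure D2:**
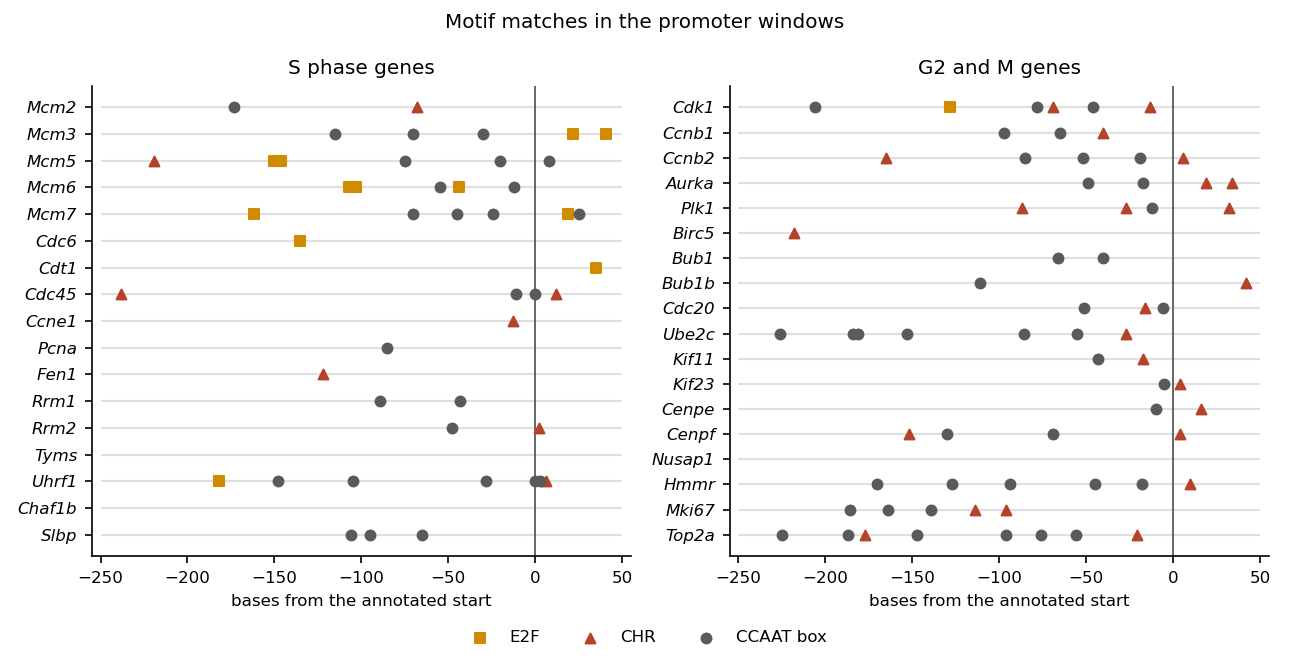
Position of each motif match in bases from the annotated start (0, vertical line) for the 17 S phase genes (left) and the 18 G2 and M genes (right) with a window; squares are E2F motifs, triangles CHR motifs and circles CCAAT boxes, on either strand, and for Fen1, Mcm7 and Uhrf1 matches of 2 windows share a line. Squares stand in 7 S phase genes and in Cdk1, and triangles in 16 of the 18 G2 and M genes.

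The MCM genes, which encode the helicase that unwinds DNA at the fork, were all higher in library 3. Mcm5 had 107 CPM in library 3 against 86.7 CPM in library 2, a fold of 1.23 (1.16 to 1.31), and Mcm4 had 110.1 CPM in library 3 against 91.7 in library 2, a fold of 1.2 (1.13 to 1.28). Mcm6 had 133 CPM in library 3 against 114 in library 2, a fold of 1.17 (1.1 to 1.23), and Mcm3 had 98.0 CPM in library 3 against 86.0 in library 2, a fold of 1.14 (1.07 to 1.21). Mcm7 had 98.7 CPM in library 3 against 88.3 CPM in library 2, a fold of 1.12 (1.05 to 1.19), and Mcm2 had 119 CPM in library 3 against 109 in library 2, a fold of 1.09 (1.03 to 1.16). The 6 intervals all lay above 1, and the sum of the 6 genes was 665.6 CPM in library 3 against 575.9 CPM in library 2, a ratio of 1.16. The proteins form a ring in which each subunit is present once, but RNA levels do not measure the amount of protein. Per kilobase of the longest annotated transcript, the 6 genes lay between 26.8 and 32.7 CPM, a span of 1.22-fold. Per kilobase of all merged exons they lay wider apart, between 16.4 and 28.1 CPM, so the narrow span depends on the length used.

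Factors that load and start the helicase, and the E cyclins, had folds within counting error of 1. Cdc6, which loads the MCM ring on origins, had 26.1 CPM in library 3 against 25.6 CPM in library 2, and Cdt1, its partner in loading, had 42.2 CPM in library 3 against 38.7 in library 2, a fold of 1.09 (0.989 to 1.2). Cdc45, which joins the ring to make the active helicase, had 16.8 CPM in both libraries, and Gins2, a subunit of the GINS complex that joins with it, had 46.4 CPM in library 3 against 43.7 in library 2. For Ccne1, a cyclin E gene whose product drives entry into S phase with CDK2, levels were 22.3 CPM in library 3 against 20.9 CPM in library 2. Its paralog Ccne2 had the lowest counts of the 42, between 259.8 and 334.8 reads a column, and 14.8 CPM in library 3 against 13.4 CPM in library 2. All 6 of these folds, from 1.00 to 1.11, had counting intervals that spanned 1. These genes had fewer reads than the MCM genes, so their intervals were wider. Cdt1 at 1.09 and Ccne2 at 1.11 had folds like the 1.09 of Mcm2, whose interval lay above 1.

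The highest fold of all 42 genes belonged to Pcna, the sliding clamp that holds DNA polymerases on the strand. Pcna (chromosome 2, 132249162 to 132253314, minus strand) had 91.9 CPM in library 3 against 73.5 CPM in library 2, a fold of 1.25 (1.17 to 1.34). Fen1, the nuclease that trims the flaps of Okazaki fragments, went the other way with 25.4 CPM in library 3 against 27.3 CPM in library 2, a fold of 0.931 (0.826 to 1.05). An antisense gene, Gm10143, shares 78.8% of the exon bases of Fen1. Whether reads were counted by strand is not given in the sources used here, so reads of Fen1 and Gm10143 cannot be told apart.

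Genes of nucleotide supply went both ways. Rrm2, the regulated subunit of ribonucleotide reductase, had 54.2 CPM in library 3 against 45.5 CPM in library 2, a fold of 1.19 (1.09 to 1.3), and Rrm1, the large subunit, had 142 CPM in library 3 against 134 in library 2, a fold of 1.07 (1.01 to 1.12). Tyms, the thymidylate synthase (chromosome 5, 30058202 to 30073617, minus strand), had 73.2 CPM in library 3 against 80.2 CPM in library 2. Its fold of 0.912 (0.851 to 0.978) was the lowest of the 42 and the only one with an interval below 1. Of the genes that act in repacking the new DNA, Uhrf1 and Chaf1b had intervals above 1, and that of Slbp spanned 1. Uhrf1, which brings the maintenance methyltransferase to hemimethylated DNA, had 155 CPM in library 3 against 137 CPM in library 2, a fold of 1.14 (1.08 to 1.19). Chaf1b, a subunit of chromatin assembly factor 1, had 21.9 CPM in library 3 against 19.1 in library 2, a fold of 1.15 (1.00 to 1.32), with the lower bound just above 1. Slbp, which binds the stem-loop of histone RNAs, had 43.8 CPM in library 3 against 40.5 in library 2, a fold of 1.08 (0.983 to 1.19).

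**Figure D3:**
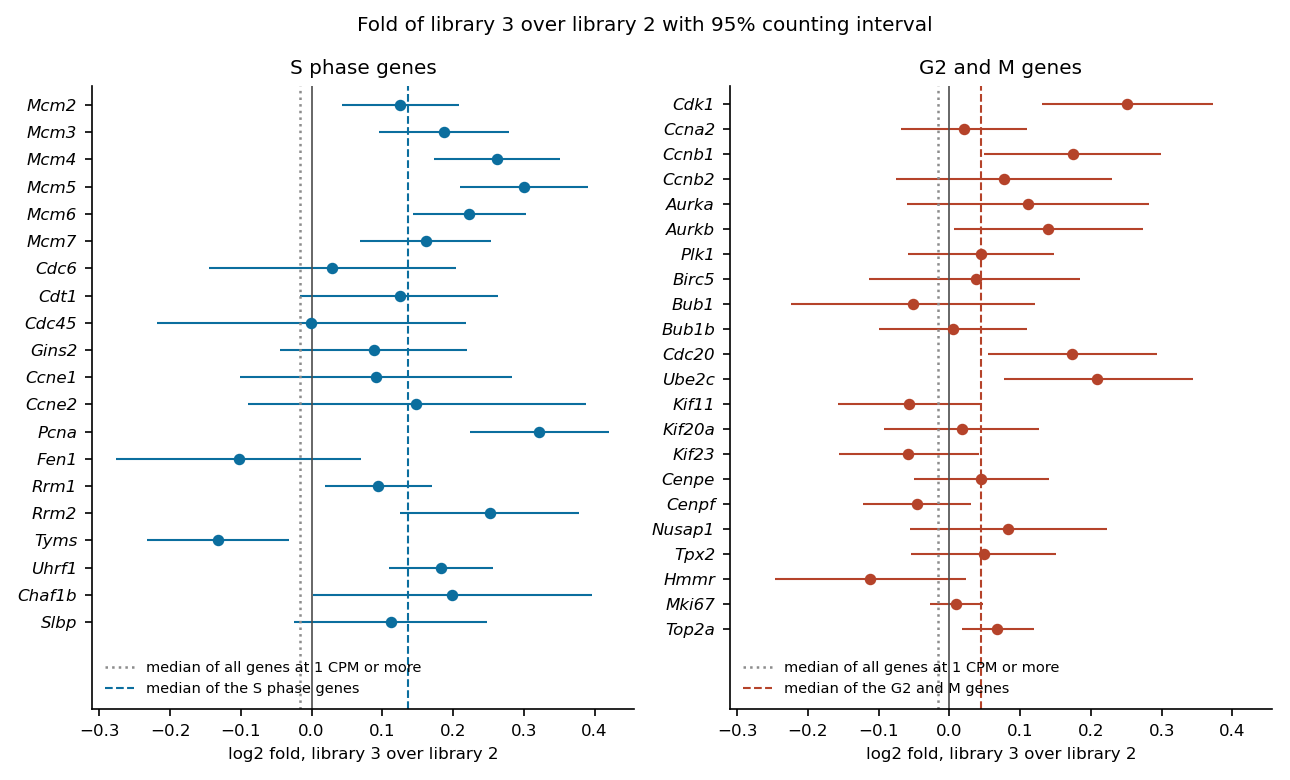
Log2 fold of library 3 over library 2 for the S phase genes (left) and the G2 and M genes (right), with 95% counting intervals as bars; the dashed line is the median of the group and the dotted line the median of all 16712 genes. The dashed line is at 0.14 for S phase and at 0.05 for G2 and M genes, with the dotted line at -0.02; Pcna and Mcm5 are farthest right and Tyms farthest left.

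Among the G2 and M genes, the folds were highest for Cdk1, Ube2c, Ccnb1 and Cdc20. Cdk1, the kinase that drives mitosis (chromosome 10, 69335146 to 69352938, minus strand), had 58.7 CPM in library 3 against 49.3 CPM in library 2, a fold of 1.19 (1.09 to 1.29). Ccnb1, the main cyclin B, had 53.5 CPM in library 3 against 47.4 in library 2, a fold of 1.13 (1.03 to 1.23), while Ccnb2, its paralog, had 34.5 CPM in library 3 against 32.7 in library 2, a fold of 1.05 (0.949 to 1.17). Ccna2, the cyclin A of somatic cells, differed little, with 98.7 CPM in library 3 against 97.3 CPM in library 2. Cdc20, the activator of the anaphase-promoting complex, had 58.3 CPM in library 3 against 51.7 in library 2, a fold of 1.13 (1.04 to 1.23). Ube2c, the ubiquitin-conjugating enzyme of that complex, had 47.8 CPM in library 3 against 41.4 in library 2, a fold of 1.16 (1.05 to 1.27), and 22.8% of its exon bases lie in Tnnc2 on the other strand. Of the 42 genes, the 10 with the highest folds were 8 S phase genes and, from G2 and M, Cdk1 and Ube2c.

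The mitotic kinases had folds between 1.03 and 1.1. Aurkb, the kinase of the chromosomal passenger complex, had 46.0 CPM in library 3 against 41.7 CPM in library 2, a fold of 1.1 (1.00 to 1.21), with the lower bound just above 1. Aurka, which acts at spindle poles, had 28.1 CPM in library 3 against 25.98 in library 2, and Plk1, which acts at centrosomes and kinetochores, had 75.03 CPM in library 3 against 72.7 in library 2; both intervals spanned 1. Birc5, the survivin subunit of the passenger complex, had 35.7 CPM in library 3 against 34.8 CPM in library 2.

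Genes of the spindle, the kinetochore and the spindle checkpoint were near equal in the libraries or lower in library 3, and all of their intervals spanned 1. Hmmr, a spindle protein (chromosome 11, 40701395 to 40733422, minus strand), had 41.5 CPM in library 3 against 44.9 CPM in library 2, a fold of 0.925 (0.843 to 1.02) and the lowest of the group. Kif23, a motor of the central spindle, had 78.3 CPM in library 3 against 81.5 in library 2, a fold of 0.961 (0.897 to 1.03), and Kif11, the motor that pushes spindle poles apart, had 74.4 CPM in library 3 against 77.4 in library 2, a fold of 0.961 (0.896 to 1.03). Bub1, a checkpoint kinase, had 26.1 CPM in library 3 against 27.1 CPM in library 2. Cenpf, a kinetochore protein, had 130.4 CPM in library 3 against 135 in library 2, and these 5 genes were the G2 and M genes that were lower in library 3. The other genes of these roles, Bub1b of the checkpoint, the central spindle motor Kif20a, the kinetochore motor Cenpe and the spindle proteins Nusap1 and Tpx2, had folds from 1.00 to 1.06.

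The genes of a pair of proteins widely used to mark dividing cells had folds near 1. Mki67, which coats mitotic chromosomes, had 560.4 CPM in library 3 against 557 CPM in library 2, a fold of 1.01 (0.981 to 1.03). Its counts were the highest of the 42, so this interval was the narrowest. Top2a, the topoisomerase that untangles sister chromatids, had 303 CPM in library 3 against 289 in library 2, a fold of 1.05 (1.01 to 1.09).

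Levels between genes were compared per kilobase of the longest annotated transcript. On that scale Top2a (56.7 ± 1.89 CPM per kilobase, SD, n = 2 libraries), Mki67 (55.5 ± 0.245) and Pcna (54.5 ± 8.57) led, followed by Uhrf1 (40.7 ± 3.64), Plk1 (33.6 ± 0.743) and Ccna2 (33.1 ± 0.336). With this length, Top2a, Mki67 and Pcna did not differ beyond the spread of the libraries, whereas Pcna and Uhrf1 did. The lowest of all 42 were Cdc45 (7.84 ± 0.00239), Bub1 (7.77 ± 0.199), Chaf1b (7.26 ± 0.706), Cdc6 (5.39 ± 0.0776) and Ccne2 (4.70 ± 0.339). Within G2 and M, Bub1 and Birc5 (10.6 ± 0.191) were lowest. Of the 41 pairs of neighbours in the order, 31 overlapped between libraries. The median gene had 21.2 ± 0.759 CPM per kilobase in S phase and 18.4 ± 0.252 in G2 and M, and the spread within a group was far wider, from 4.70 to 54.5 in S phase and from 7.77 to 56.7 in G2 and M. With the length of all merged exons the medians were 13.0 and 13.3 CPM per kilobase, so the order of the groups turned. Mki67 then led with 55.5 CPM per kilobase, followed by Pcna with 34.5 and Uhrf1 with 34.2. The closeness of Mki67 and Pcna, and the gap between Pcna and Uhrf1, were thus seen only with the longest transcript.

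**Figure D4:**
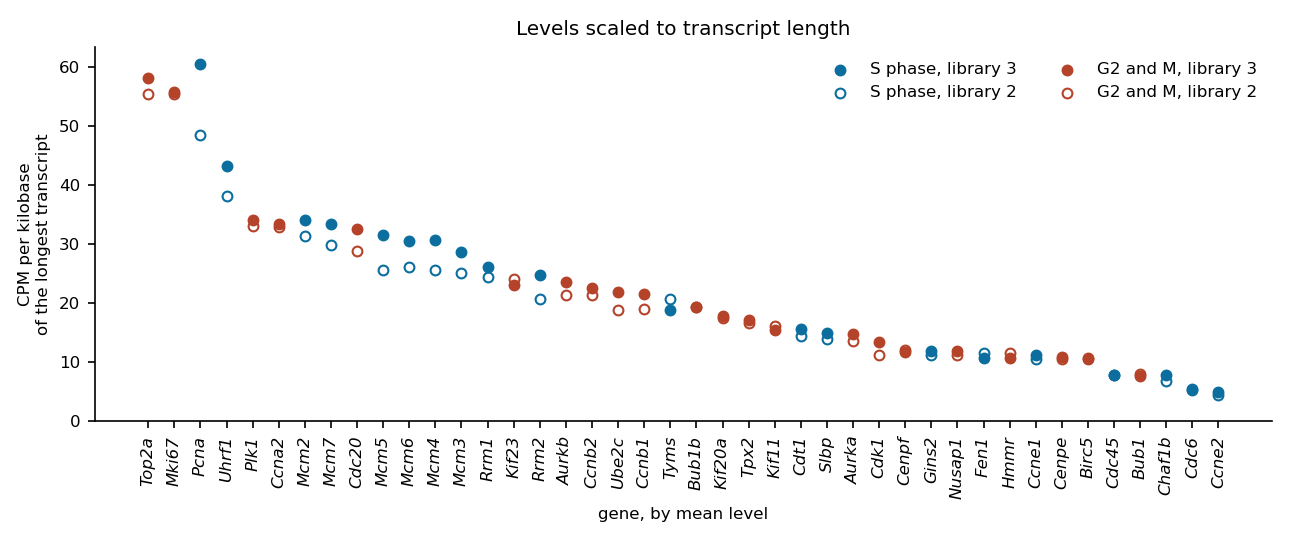
Level per kilobase of the longest annotated transcript for the 42 genes, in order of the mean; filled points are library 3, open points library 2, blue S phase and red G2 and M. Top2a, Mki67 and Pcna stand at 54.5 to 56.7 CPM per kilobase, and Ccne2 at 4.70 is lowest; both groups are mixed along the whole order.

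Genes of the same processes outside the 42 were read in the same way. Of 45 other replication genes, 33 were higher in library 3, with a median log2 fold of 0.10, and 14 had intervals above 1 and 2 (Dbf4 and Orc4) below 1. Pole, the catalytic subunit of the leading strand polymerase, had 86.9 CPM in library 3 against 69.8 CPM in library 2, a fold of 1.24 (1.16 to 1.33). Its lagging strand counterpart Pold1 had 65.5 CPM in library 3 against 53.1 in library 2, a fold of 1.23 (1.14 to 1.34), and Lig1, the ligase that joins Okazaki fragments, had 90.8 CPM in library 3 against 75.1 in library 2, a fold of 1.21 (1.13 to 1.29); these 3 are named after their values were seen. The most abundant of the list were Dnmt1, the maintenance methyltransferase, with 239 CPM in library 3 against 216 CPM in library 2, and Topbp1, which helps to fire origins, with 138 CPM in library 3 against 133 in library 2. Of 49 other mitosis genes, 30 were higher in library 3, with a median log2 fold of 0.03, and 6 had intervals above 1 and 2 (Ect2 and Cenpc1) below 1. Its most abundant genes were the condensin subunit Ncapd2, with 161 CPM in library 3 against 162 in library 2, and the microtubule polymerase Ckap5, with 156 CPM in library 3 against 149 in library 2. For comparison, 45.8% of all 16712 genes were higher in library 3, 10.3% had an interval above 1 and 12.7% below 1. Within the range of levels of the 42, 13.7% had an interval above 1. The 6 of 49 other mitosis genes with an interval above 1 were thus near the share of all genes. E2F motifs stood in 16 of 37 of the other replication genes with a window (43.2%) and in 5 of 43 of the other mitosis genes (11.6%), and a CHR motif with a CCAAT box in 4 of 37 (10.8%) and 22 of 43 (51.2%). Of 31 regulators of the cycle, 13 were higher in library 3, with a median log2 fold of -0.02, equal to that of all genes. edgeR called none of these genes between Fgf9_null and Fgf9_het.

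**Figure D5:**
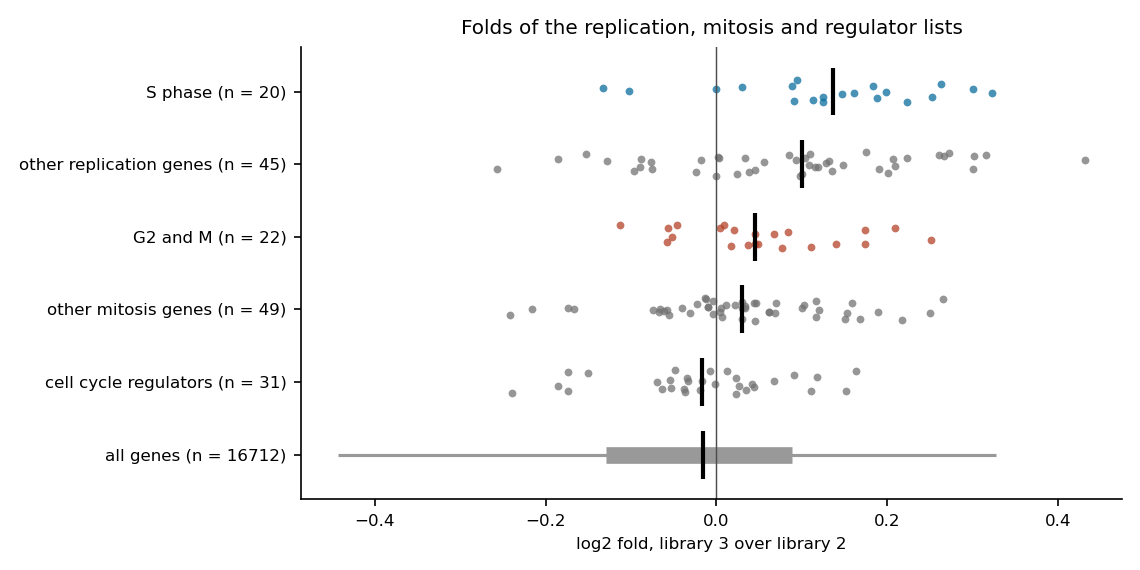
Log2 fold of library 3 over library 2, 1 point per gene, for the 42 genes and for 3 further lists; black bars are medians, and for all 16712 genes the thick grey bar spans the middle 50% and the thin one the middle 90%. Medians are 0.14 (S phase), 0.10 (other replication genes), 0.05 (G2 and M), 0.03 (other mitosis genes), -0.02 (cell cycle regulators) and -0.02 (all genes).

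The libraries also differed in markers of other cell types. All 8 stomach markers had at least 1 CPM in both libraries, led by the prochymosin gene Cym with 4502 CPM in library 3 against 4882 CPM in library 2. Counting intervals of 5 of the 8 spanned 1. That of Myh11 lay above 1, with a fold of 1.081 (1.067 to 1.095). Those of Cym and Sox2 lay below 1, with a fold of 0.922 (0.914 to 0.930) for Cym and of 0.797 (0.725 to 0.877) for Sox2. Genes of red blood cells were higher in library 3, summing to 1588 CPM in library 3 against 1153 CPM in library 2 over the 7 of 11 markers with at least 1 CPM in both libraries. Their cells include dividing precursors, whose factors Gata1 and Klf1 had few reads and were not in the sum. Gata1 had 0.399 CPM in library 3 against 0.309 in library 2, from 9 and 6 reads a column, a fold of 1.29 (0.41 to 4.4). Klf1 had 1.24 CPM in library 3 against 0.464 in library 2, from 28 and 9 reads a column, a fold of 2.675 (1.23 to 6.44). Liver markers summed to 75.1 CPM in library 3 against 48.3 in library 2 over 5 of 10 genes, and immediate early genes to 823 CPM in library 3 against 590.4 in library 2 over 11 of 12. Squamous markers of the forestomach summed to 389.8 CPM in library 3 against 679.4 CPM in library 2 over 9 of 10 genes, a sum led by keratins. Of these 9 genes, 7 were lower in library 3, Sbsn had 7.28 CPM in library 3 against 7.08 in library 2, and Sprr1a was higher, with 28.9 CPM in library 3 against 15.98 in library 2, a fold of 1.8 (1.58 to 2.07). The part of these differences in the folds of the 42 genes was not tested.

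Transcript length and base composition moved with the fold over the whole table. In 4 equal bins of transcript length, the median log2 fold of protein-coding genes was 0.04, 0.00, -0.02 and -0.04, and in 4 bins of GC content, low to high, it was -0.05, -0.02, 0.01 and 0.02. Taken relative to the genes of the same length bin, the median log2 fold of S phase genes was 0.14 and that of G2 and M genes 0.04. Relative to the same GC bin, the values were 0.16 and 0.06, against 0.14 and 0.05 without bins. Exon bases were shared with another annotated gene in 13 of the 42 genes, most in Fen1 (78.8%), Gins2 (67.3%, with Gse1) and Kif20a (29.3%, with Cdc23).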

How the data were processed

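Total RNA of whole stomachs was depleted of ribosomal RNA, copied from random hexamers and read as pairs, per the labels' protocols. The authors deposited estimated counts per Ensembl gene; Salmon 1.8.0, Trimmomatic 0.33, FastQC 0.10, edgeR and the builds GRCm38 and mm10 appear, without roles, in the submitters' processing notes. Neither strand setting nor annotation release is given in the sources used here. In each column, 23.4% to 23.9% of values were not whole within 0.01. The sample titles call the Fgf9_het samples WT, and the genotype field was followed. The deposited table has 2 further columns of values without a name, which were not used.

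Counts were rounded and fitted in R 4.3.3 with edgeR 4.0.16 (filterByExpr, TMM factors, quasi-likelihood F test, Benjamini-Hochberg adjustment over all genes tested, threshold 0.05), with DESeq2 1.42.0 and limma-voom (limma 3.58.1) as alternatives. All were run on simulated data with independent columns. The columns here are copies of the same libraries, so those runs say nothing about these fits. Because each library stood in both groups, the p-values measure no spread between samples of a genotype. Without the replicate block they rest on the spread between the libraries, and with it on the small gaps between copies. The spread between the libraries may be technical, since nothing in the labels says that samples came from separate embryos. Columns were compared by chi-square where the summed count of a gene reached 10; 7 genes with large gaps were set apart, and over the others same-numbered columns gave 0.00078 and 0.00095 per degree of freedom. Their deviations from the group means correlated at 1.00 across 17153 genes, so the pairing by number comes from the values and not from the labels.

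Levels are CPM, averaged over same-numbered columns. A floor of 3 counts was 0.132 to 0.156 CPM, and all 42 genes were above 1 CPM. Intervals and floors cover counting error only. Lengths and overlaps come from GENCODE M21, where 50870 identifiers matched, and promoters from RefSeq (GRCm38.p6). All 42 genes could be named. The rule was to give values per library for the 4 highest and 2 lowest per kilobase and the 3 highest and 3 lowest folds in each group. It also covered the MCM genes and the 2 most abundant of the other replication, other mitosis and regulator lists. Values were given beyond this rule for further members, such as Cdt1, Rrm1 and Aurkb. The same holds for further genes of the other lists, such as Pole and E2f1. The marker lists did not follow this rule. Of these, Cym was given as the most abundant stomach marker, and Myh11, Sox2, Gata1, Klf1, Sbsn and Sprr1a were named outside the rule. The members and lists were chosen with earlier results of these data known.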

Additional observations from a re-analysis of the deposited data

How the results depend on the processing

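Over 4 other scalings or column choices, all 168 fold values of the 42 genes stayed within their counting interval. This is no check of the folds, because these choices moved the median of all genes by at most 0.0193. The choices of columns also kept a copy of each library. Cdc45, at a log2 fold of -0.000622, turned to 0.0188 with TMM-scaled totals and to 0.000132 in the Fgf9_null columns alone, and Bub1b, at 0.00477, turned to -0.00401 without structured and ribosomal RNA genes. With TMM-scaled totals the G2 and M median log2 fold was 0.0645 and the ratio of sums 1.04, and the median of all genes moved by 0.0193. Leaving out structured and ribosomal RNA genes gave 25.6 and 22.1 CPM per kilobase as medians of S phase and of G2 and M, and merged exon lengths gave 13.0 and 13.3, which turned the order of the groups. Chosen after seeing the data, leaving out the 6 MCM genes gave an S phase median of 0.10 (11 of 14 higher) and a ratio of 1.09, and leaving out genes whose exons overlap another gene gave 0.19 (13 of 14 higher) for S phase and 0.04 (10 of 15 higher) for G2 and M. Between the genotype labels, DESeq2 called 3 genes and edgeR with the replicate block 6, of which 1 had a log2 fold of only -0.000376. Other normalizations, filters and limma-voom called 0, and leaving out 1 replicate called 1 to 2; none of the 42 genes was called in any of these fits. Leaving out 1 column at a time gave S phase medians of 0.126 to 0.147 and ratios of 1.109 to 1.125. For G2 and M it gave medians of 0.0347 to 0.0556, with 15 to 17 of 22 higher, and ratios of 1.018 to 1.033. The same-numbered copy of the column stayed in each time, so no library was left out and these ranges are no replicate check. With 1 library a side, depth bounds only the counting error: the counting interval spanned 1 in 24 of the 42 genes, against 12870 of all 16712 genes.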

Other observations

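Of 31 regulators of the cell cycle, 13 were higher in library 3 (41.9%, against 45.8% of all genes), and 26 had counting intervals that spanned 1, against 12870 of all 16712 genes, so both shares were near those of the whole table. E2f1, an activator of S phase genes, had 33.2 CPM in library 3 against 29.7 CPM in library 2, a fold of 1.12 (1.00 to 1.25), whereas E2f3, another activator, had 42.4 CPM in library 3 against 47.8 in library 2, a fold of 0.887 (0.809 to 0.971). Rb1, the retinoblastoma gene whose product restrains E2F factors, had 16.6 CPM in library 3 against 19.5 CPM in library 2, a fold of 0.847 (0.731 to 0.979). The D cyclins, which start the cycle with CDK4 and CDK6, went both ways. Ccnd1 had 126 CPM in library 3 against 116 in library 2, a fold of 1.08 (1.03 to 1.15). Ccnd2, the most abundant regulator, had 739 CPM in library 3 against 758 in library 2, a fold of 0.975 (0.954 to 0.997). The interval of Ccnd3 spanned 1, with 180 CPM in library 3 against 183 in library 2, a fold of 0.987 (0.943 to 1.03). Cdk4, next in abundance after Ccnd2, had 206 CPM in library 3 against 202 CPM in library 2. Cdk6 had a fold of 0.974 (0.918 to 1.03). Of the activators of G2 and M genes, Foxm1 had 88.6 CPM in library 3 against 86.1 in library 2, Mybl2 had 30.8 CPM in library 3 against 29.3 in library 2, and both intervals spanned 1. E2f1, E2f3, Rb1, Ccnd1, Ccnd3, Cdk6, Foxm1 and Mybl2 are named after their values were seen.

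Gmnn, which encodes geminin, the inhibitor of the loading factor Cdt1, had the highest fold of the 45 other replication genes, with 9.66 CPM in library 3 against 7.16 CPM in library 2, a fold of 1.35 (1.08 to 1.68). Dbf4, the activator of the origin-firing kinase Cdc7, had the lowest, with 29.1 CPM in library 3 against 34.8 CPM in library 2, a fold of 0.837 (0.750 to 0.933), while Cdc7 itself had 31.0 CPM in both. In mitosis, Kif18b, a kinesin of microtubule tips, had the highest fold of the 49 genes, with 36.6 CPM in library 3 against 30.5 in library 2, a fold of 1.2 (1.08 to 1.34), and Bub3, a checkpoint partner of Bub1, had 73.2 CPM in library 3 against 62.9 in library 2, a fold of 1.16 (1.08 to 1.25). These genes are named after their values were seen.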
